A study of Mus musculus with 6 samples.

Results

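The genes described here build and cap actin filaments or walk along them: the actins with their monomer binders, the Arp2/3 complex, formins, Spire proteins, capping protein, tropomyosins, other actin-related proteins and the myosins. They were chosen by gene symbol alone, as every symbol that starts with Arpc, Actr, Capz, Diap, Fmn, Spire or Myh, or with Myo, Myl or Tpm followed by a digit, together with Actb, Actg1, Cfl1 and Pfn1. The rule used no measured value. It found 60 of the 10896 genes in the authors' deposited table. By class these were 17 unconventional myosins, 10 Arp2/3 genes, 7 myosin heavy chains, 6 formins, 4 actins and monomer binders, 3 capping protein genes, 3 myosin light chains, 3 dynactin actin-related proteins, 3 nuclear actin-related proteins, 2 Spire genes and 2 tropomyosins. All 60 had a mean of at least 10 normalised reads in one group or the other.

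The study sequenced mouse oocytes at the germinal vesicle stage, the arrested stage before meiosis resumes, in 6 samples of 50 oocytes from (C57BL x CBA) F1 females. In the 3 in vitro samples, follicles were freed with collagenase from ovaries of 2 to 5 females 10 to 12 days old, and the oocytes grew in them on membrane inserts in MEM-alpha medium with serum, insulin, transferrin, selenium, FSH, penicillin and streptomycin. In the 3 in vivo samples, oocytes that had grown in the ovary were released by puncture from females 7 to 11 weeks old into M2 medium with dbcAMP, which holds the arrest. Both groups started from 10 ng of total RNA, which was turned into cDNA and amplified. Culture and donor age differed together, so their effects cannot be told apart in any comparison below. The labels do not say whether samples of one group are separate animals or cultures, so the p-values measure only the spread between these samples, which may be technical.

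Actin filaments grow from nucleators: the Arp2/3 complex starts branches on existing filaments, while formins and Spire proteins start unbranched ones, from monomers that profilin supplies and cofilin helps return. In mouse oocytes formin 2 and Spire proteins build a cytoplasmic mesh of filaments that is needed to move the meiotic spindle to the cortex, and the Arp2/3 complex works in the cortical actin cap. Myosins are motors on these filaments. Non-muscle myosin II contracts the cortex and the division furrow, class V myosins carry vesicles along the mesh, and class I myosins tie membrane to actin.

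The deposited values were group means of normalised reads, without values per sample. Whole reads per library could be recovered from the means of 8167 genes, among them 41 of the 60 members. Over these genes the libraries held 905930 to 1195240 reads in vitro and 959227 to 1362327 in vivo, without molecular identifiers, so low values carry counting error beyond what is stated. The libraries are called A, B and C within each group and cannot be matched to the replicate numbers of the labels. The in vitro libraries did not group cleanly. Across genes, in vitro library A had a Spearman correlation of 0.961 with in vivo library C, 0.959 with in vitro library C and 0.930 with in vitro library B. In vitro libraries B and C correlated at 0.960, and B was the farthest from the in vivo libraries, at 0.872 to 0.889. Library A thus lay between its own group and the other, and whether a label was exchanged was not tested. Of the in vitro libraries, A lay nearest to the in vivo mean for 26 of the 41 members, C for 10 and B for 5. Over all recovered genes the shares were 51.7% for A, 28.4% for C and 19.8% for B. Calls on recovered reads are therefore given with single libraries left out where that changed them.

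Oocyte markers were present as labelled, and all 10 of the listed genes were in the table. By the call described next, Bmp15 and Nlrp5 were lower in vitro and 0 were higher. Bmp15 averaged 14550 normalised reads in vitro and 25668 in vivo, and Nlrp5 averaged 8330 in vitro and 24100 in vivo, per the authors' deposited table. The other 8 were not called, and of them Figla, Mos and Oosp1 had log2 changes above 0. Of 10 granulosa and cumulus markers 6 were in the table, with Amh, Foxl2, Fst and Has2 not in it. Summed over these 6, normalised reads per library came to 318.9, 453 and 364.8 in vitro and to 269.2, 258.6 and 262 in vivo, so every in vitro library was above every in vivo library. By the same call, Fshr and Inha were higher in vitro and 0 were lower. The list did not move as one: Nr5a2 had 59.7, 69.5 and 52.1 normalised reads in vitro and 72.0, 85.9 and 71.2 in vivo, and Kitl had a log2 change of -0.11. Of the other marker lists, theca cells had 1 of 5 genes in the table, smooth muscle 3 of 8, striated muscle 3 of 12, stroma 0 of 6, and blood and immune cells 1 of 6. Acta2, Tagln and Des of smooth muscle, and Acta1, Actc1 and Ckm of striated muscle, were not in the table. The part of other cells in the results below was not tested, and in such bulk samples fewer cells of a type and less RNA per cell cannot be told apart.

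Every member called lower in vitro was a myosin motor, no member called higher was one, and the list as a whole was called about as often as all genes. The split into motors and other members was chosen after the values were seen, so it describes the calls and is not a test. The authors' deposited table gives each gene a PPEE, read here as the posterior probability of equal expression, and a gene was called when it was below 0.05. By this call 3 of the 60 members were higher in vitro, namely Actb, Cfl1 and Arpc5l. This is 5% of the members, against a background of 6.75% of all 10896 genes. Another 7 members, or 11.7%, were lower in vitro, against a background of 8.31% of all genes, and these were Myh10, Myo1c, Myo1e, Myo3a, Myo5a, Myo5b and Myo6. The 24 motor genes, which are the heavy chains and the unconventional myosins, held all 7 of the lower calls and none of the higher ones, with a median log2 change of -0.20. The other 36 members held the 3 higher calls and no lower one, with a median log2 change of 0.19. Over all 60 the median was 0.12, and over all genes of the table it was 0.02.

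**Figure D1:**
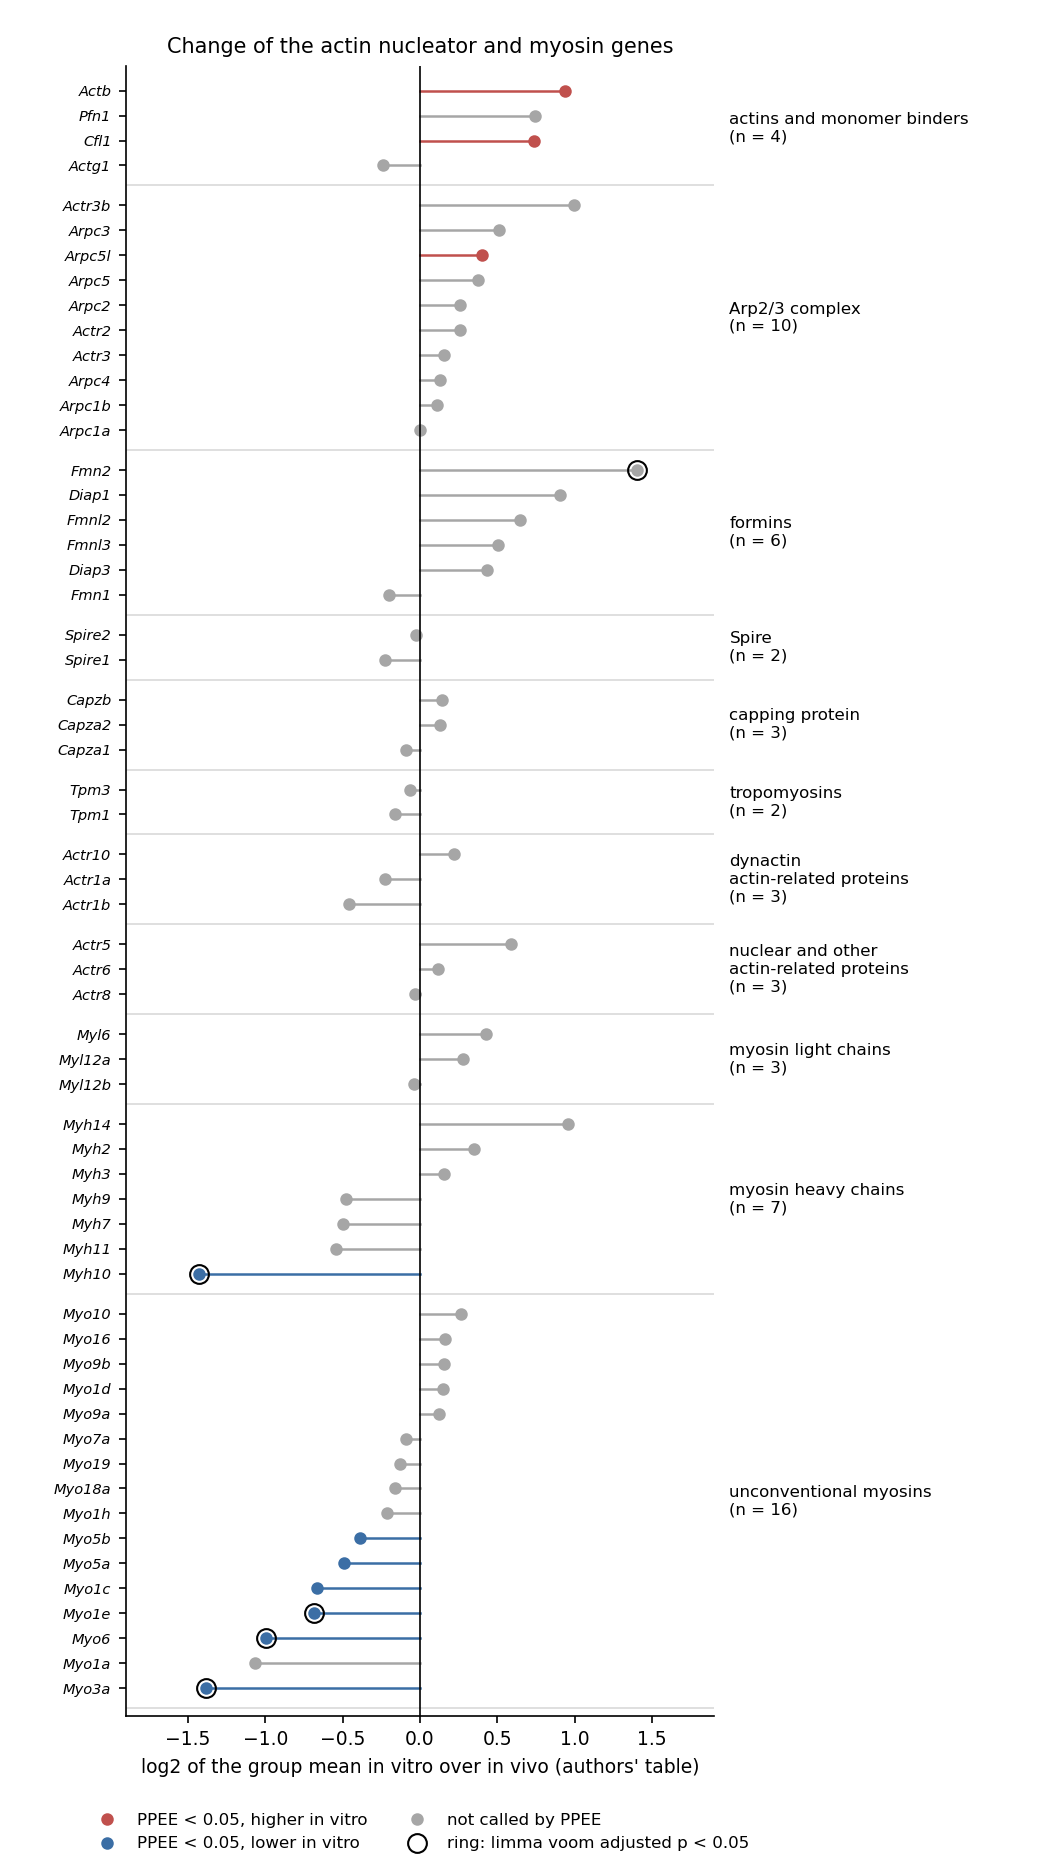
Log2 ratio of the group means, in vitro over in vivo, for the members, grouped by class from actins at the top to unconventional myosins at the bottom. Red points are genes called higher in vitro by the PPEE of the authors' deposited table, blue points are genes called lower, grey points were not called, and rings mark an adjusted p below 0.05 in limma voom on recovered reads. The 7 blue points lie in the 2 myosin motor classes and the 3 red points outside them, and 1 of the 17 unconventional myosins is not shown.

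The recovered reads, tested with limma voom and Benjamini-Hochberg adjustment over all 8167 genes, gave the spread between libraries for the 41 members. They derive from the same reads as the group means and are no independent measurement. By this test 1 of the 41 members was higher in vitro, Fmn2, which is 2.44% against a background of 5.53%. Lower in vitro were 4 members, Myh10, Myo1e, Myo3a and Myo6, which is 9.76% against a background of 4.76%. The 4 were also among the 7 called by PPEE, whereas Fmn2 was not called by PPEE. At an unadjusted p below 0.05 there were 10 members, or 24.4%, which is no more than the background of 29.8% of recovered genes. The 7 motors were Myh10, Myh11, Myo1a, Myo1e, Myo3a, Myo5a and Myo6, all with lower values in vitro, and the other 3 were Fmn2, Diap1 and Pfn1, all with higher values in vitro. The 3 in vitro libraries all lay above the 3 in vivo libraries for 6 of the 41 members, or 14.6%, against a background of 18% of recovered genes. They all lay below for 9 members, or 22%, against a background of 15.8%. Of these 9, 8 were motors, and the other was Actr1b.

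The motor genes are long, a property the rule did not use. Their median length in the authors' deposited table was 6344 bases, against 2046 for the other members and 2847 for all genes. Among the 3137 genes of the table with at least 4000 bases, 11.4% were called lower in vitro and 5.8% higher, and the median log2 change was -0.05. Of the motors 22 were that long, and 7 of the 22, or 31.8%, were called lower, with a median of -0.20. Long members that were not motors were Actr10, Diap1, Fmn1, Fmn2, Fmnl2, Fmnl3 and Spire1, of which 0 were called by PPEE, with a median of 0.51. The motor split and the minimum of 4000 bases were both chosen after the values were seen. The part of length in the motor result was not tested.

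The RefSeq promoters of 49 of the 60 members were at hand, from 250 bases before to 50 after each annotated start, in build GRCm38.p6, which differs from the build mm9 the submitters named. They are printed for 4 members, 2 that hold a CArG box and 2 that hold TAATTG, so that the matches counted below can be seen in place. The CArG box is the site of serum response factor, which is known to act on actin genes, and TAATTG is an element bound by the oocyte factor NOBOX. Both were searched on both strands, and capitals mark the match. In the Actg1 promoter (chr11:120348446-120348745, minus strand) the CArG box begins 90 bases before the start, and in the Myo1e promoter (chr9:70207100-70207399, plus strand) 32 bases before it. In the Fmn2 promoter (chr1:174501575-174501874, plus strand) TAATTG, read on the opposite strand, begins 169 bases before the start, and in one of the 3 Myo1c promoters (chr11:75651900-75652199, plus strand) 75 bases before it.
Actg1: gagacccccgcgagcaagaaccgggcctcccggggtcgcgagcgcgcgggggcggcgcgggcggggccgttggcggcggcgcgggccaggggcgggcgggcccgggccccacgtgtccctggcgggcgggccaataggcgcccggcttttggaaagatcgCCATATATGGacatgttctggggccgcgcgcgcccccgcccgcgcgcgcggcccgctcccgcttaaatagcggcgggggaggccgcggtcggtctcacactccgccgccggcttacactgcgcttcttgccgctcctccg
Myo1e: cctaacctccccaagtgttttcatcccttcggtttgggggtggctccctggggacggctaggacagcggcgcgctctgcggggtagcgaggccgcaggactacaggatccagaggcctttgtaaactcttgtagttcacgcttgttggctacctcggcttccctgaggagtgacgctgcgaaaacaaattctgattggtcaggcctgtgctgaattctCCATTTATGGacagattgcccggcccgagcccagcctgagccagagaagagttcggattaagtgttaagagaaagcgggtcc
Fmn2: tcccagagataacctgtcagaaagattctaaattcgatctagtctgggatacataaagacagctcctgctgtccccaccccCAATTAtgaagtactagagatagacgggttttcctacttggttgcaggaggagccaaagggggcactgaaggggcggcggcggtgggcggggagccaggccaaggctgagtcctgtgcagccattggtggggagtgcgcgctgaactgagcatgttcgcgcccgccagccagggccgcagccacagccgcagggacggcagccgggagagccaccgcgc
Myo1c: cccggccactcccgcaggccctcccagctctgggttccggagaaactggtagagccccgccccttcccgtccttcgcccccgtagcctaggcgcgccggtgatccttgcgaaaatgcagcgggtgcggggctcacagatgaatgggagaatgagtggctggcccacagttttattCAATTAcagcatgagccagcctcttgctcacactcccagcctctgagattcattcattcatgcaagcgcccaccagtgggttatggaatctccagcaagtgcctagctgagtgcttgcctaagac
These 49 members had 60 promoters, some with more than one. A CArG box was found in 4 of the 60, those of Actg1, Arpc4, Myl6 and Myo1e. This is 6.67%, against 1.64% of all 32544 promoters in the RefSeq table. TAATTG was found in 2 of the 60, or 3.33%, against 8.01% of all promoters. Of the genes found with a CArG box, Myo1e was lower in vitro, and Actg1, Arpc4 and Myl6 were not called. No promoter was at hand for the called members Actb, Arpc5l and Myo5b, nor for Myh11, so these were not searched. A match is a description of the sequence and no evidence of binding.

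Of the cytoplasmic actins, the beta form was higher in vitro and the gamma form was not called. Actb, beta actin, averaged 501.6 normalised reads in vitro and 261.4 in vivo in the authors' deposited table, a fold of 1.92 with a PPEE of 2.41e-07. Its in vivo libraries were recovered at 215.1, 230.3 and 338.8 normalised reads, and the in vitro mean, for which no whole reads were found, lies above all of them. Actg1, gamma actin, had means of 1081 in vitro and 1278 in vivo in that deposited table, and its PPEE was 0.907. Per kilobase of gene length, Actg1 made up 67.8% of both actins in vitro and 82.7% in vivo. This share was not tested. For Actg1, 37.4% of its 50-base transcript windows also occur in transcripts of other genes, most of them in the pseudogene Gm12715, so its reads could be split with copies, and for Actb this was 9.12%.

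Of the monomer binders, cofilin was higher in vitro. Cfl1, which severs filaments and frees monomers, had means of 1544 in vitro and 925 in vivo in the authors' deposited table, a fold of 1.67 with a PPEE of 0.00148. Both means were too high for reads per library to be recovered. Other genes' transcripts, most often those of Snx32, hold 18.3% of the windows of Cfl1. Pfn1, profilin, which hands monomers to formins, had 469, 620 and 525 normalised reads in vitro and 396, 159 and 409 in vivo. All in vitro libraries were above all in vivo ones, and in vivo library B was far below the other two. The log2 change of Pfn1 was 0.86 with a standard error of 0.27 and an adjusted p of 0.0562 in limma voom, and its PPEE was 0.351. Without in vivo library B the log2 change was 0.41 with an adjusted p of 0.231, without in vitro library A the adjusted p was 0.0134, and without in vivo library C it was 0.0474. Profilin was thus called only when one of those last libraries was left out.

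Every one of the 10 Arp2/3 genes had a log2 change above 0 in the authors' deposited table, from 0.00 for Arpc1a to 0.99 for Actr3b, with a median of 0.26. Of all genes in the table, 51.1% had a log2 change above 0. When centred on the median of all genes, the log2 change of Arpc1a came to -0.012. Only Arpc5l passed the PPEE call, and none of the 7 recovered ones passed limma voom, where none had an unadjusted p below 0.05 either. Arpc5l, which encodes an alternative form of the smallest subunit, had means of 2169 in vitro and 1645 in vivo in the deposited table, a fold of 1.32 with a PPEE of 0.000168. It had the highest level per kilobase of all members in vitro, at 1707, against 1294 in vivo. Its paralog Arpc5 had 201, 234 and 215 normalised reads in vitro and 138, 179 and 184 in vivo. These groups did not overlap, but the log2 change of 0.39 with a standard error of 0.19 had an adjusted p of 0.182 in limma voom. Per kilobase Arpc5l made up 93.7% of both paralogs in vitro and 93.6% in vivo.

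Of the remaining subunits with recovered reads, only Arpc3 was called in any fit that left out a library. Arpc3, another subunit, had 265, 922 and 584 normalised reads in vitro and 562, 345 and 333 in vivo. In vitro library A was the lowest of all 6 and library B the highest. Its log2 change was 0.33 with a standard error of 0.35 and an adjusted p of 0.553 in limma voom. Leaving out in vitro library A gave 0.85 with an adjusted p of 0.00759, and leaving out library B gave -0.11 with an adjusted p of 0.872. Arpc2, which with Arpc4 forms the core that binds the mother filament, had 549, 428 and 428 normalised reads in vitro and 374, 374 and 424 in vivo. The lowest in vitro value was only just above the highest in vivo one, and the adjusted p was 0.258 in limma voom. Actr3b, an alternative to Actr3, was low, with 13.8, 15.6 and 29.8 normalised reads in vitro and 11.3, 6.2 and 11.3 in vivo. Its groups did not overlap, and its adjusted p was 0.217 in limma voom. The ranges of Actr2, Arpc1a and Arpc4 overlapped between the groups, with adjusted p-values of 0.319, 0.978 and 0.692 in limma voom. Arpc1b, the form of the propeller subunit that made up 93.9% of both Arpc1 paralogs per kilobase in vitro and 93.5% in vivo, had means of 2230 in vitro and 2063 in vivo in the authors' deposited table. Actr3, an actin-related protein that mimics the first monomer of a branch, had means of 1454 in vitro and 1303 in vivo in it. Neither was called, and other genes' transcripts hold 24.3% of the windows of Arpc1b and 26.3% of those of Actr3.

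Among the formins, Fmn2 had the highest log2 change of all members, and it was higher in vitro by limma voom. Formin 2, known in mouse for building the oocyte's cytoplasmic actin mesh, had 182, 496.5 and 373 normalised reads in vitro and 141, 106 and 150 in vivo. The groups did not overlap, and in vitro library A was nearest to the in vivo ones. The mean was 350.6 ± 159 in vitro and 132.4 ± 23.1 in vivo (SD, n = 3 per group). The log2 change was 1.28 with a standard error of 0.32 and an adjusted p of 0.0276 in limma voom. The PPEE of the authors' deposited table, in contrast, was 0.235, which is no call. The limma voom call was also lost when some libraries were left out: the adjusted p was 0.0747 without in vitro library B, 0.103 without in vitro library C, 0.0989 without in vivo library A and 0.122 without in vivo library B. The log2 change stayed between 0.95 and 1.74 over all 6 such fits. Per kilobase Fmn2 made up 93.3% of Fmn2 and Fmn1 together in vitro and 82% in vivo, a share that was not tested. Fmn1, formin 1, had 57.0, 44.6 and 37.2 normalised reads in vitro and 55.0, 46.1 and 58.7 in vivo, and these overlapped.

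Diap1, Diap3, Fmnl2 and Fmnl3 had the same order of in vitro libraries as Fmn2, with A lowest and B highest. This order was not particular to formins: Actr2, Actr5, Arpc3, Arpc5, Myl6, Myo9a, Myo10, Pfn1 and Spire2 had it too. The formin Fmn1 did not have it, with A highest. Diap1, a diaphanous formin, had 62.5, 142 and 141 normalised reads in vitro and 60.6, 59.3 and 64.4 in vivo. In vitro library A lay among the in vivo values, and libraries B and C lay far above them. Its log2 change was 0.78 with a standard error of 0.32 and an adjusted p of 0.121 in limma voom, and without in vitro library A it was 1.21 with an adjusted p of 0.0015. Fmnl3, a formin-like protein of cell protrusions, had 414, 757 and 472 normalised reads in vitro and 482, 336 and 339 in vivo, with an adjusted p of 0.177, and of 0.0206 when in vitro library A was left out. Diap3 had 100.2, 152 and 125 normalised reads in vitro and 104, 79.7 and 94.9 in vivo, with an adjusted p of 0.247. Fmnl2 was low and also overlapped. The granulosa marker sum above also had A lowest and B highest among the in vitro libraries. Its part in the values of these members, formins or not, was not tested.

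**Figure D2:**
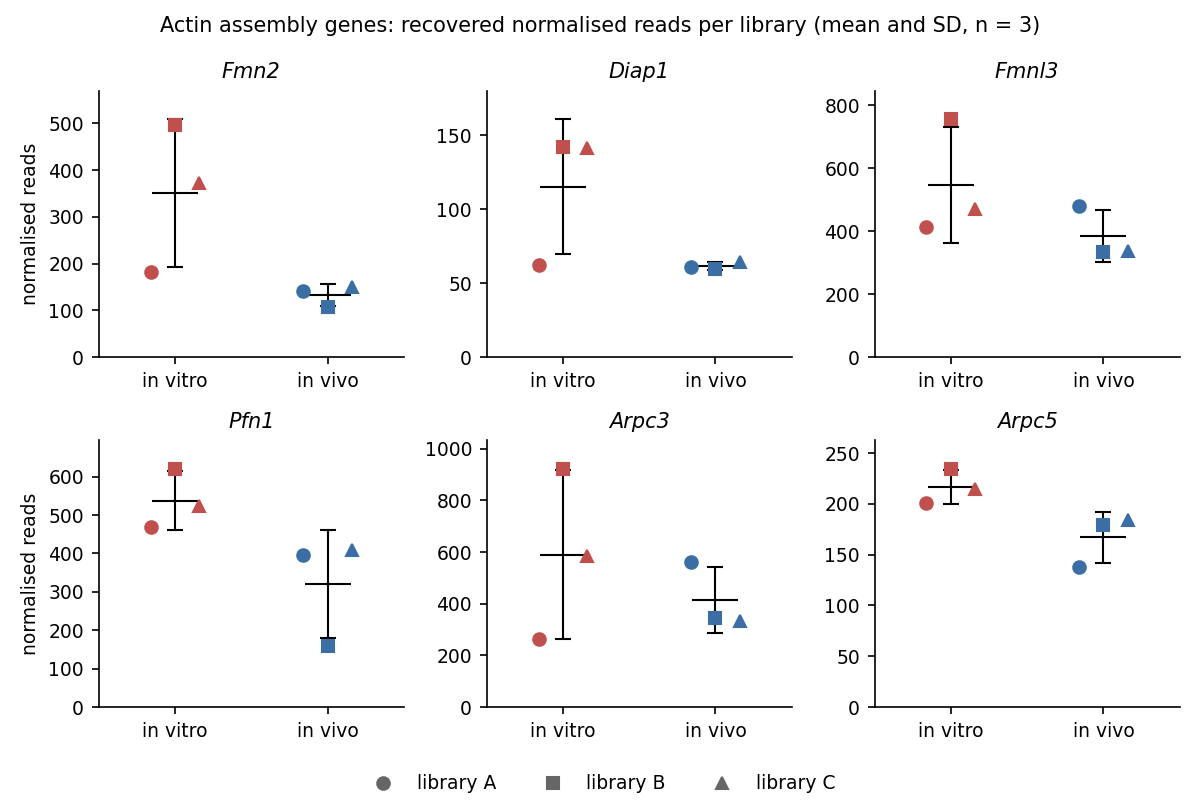
Recovered normalised reads of 6 actin assembly genes in each of the 3 in vitro libraries (red, left) and 3 in vivo libraries (blue, right), with circles for library A, squares for B, triangles for C, and black bars for the mean and SD. In vitro library A was the lowest in vitro library for all 6 genes, and for Diap1 it lay at 62.5, within the in vivo range of 59.3 to 64.4.

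The Spire genes, partners of formin 2, were not called. Spire1 had means of 2204 in vitro and 2575 in vivo in the authors' deposited table, and its PPEE was 0.896. Spire2 had 16.5, 35.2 and 23.6 normalised reads in vitro and 29.1, 23.9 and 23.7 in vivo, with an adjusted p of 0.873 in limma voom. Per kilobase, Spire1 made up 97.8% of both in vitro and 98.1% in vivo, so nearly all Spire message was Spire1 in either group. Spire1 had 462 normalised reads per kilobase in vitro and 540 in vivo, against 54.3 in vitro and 20.5 in vivo for Fmn2.

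Capping protein, which closes the growing end of filaments, and the tropomyosins, which coat them, were not called. The log2 changes in the authors' deposited table were -0.09 for Capza1, 0.13 for Capza2 and 0.14 for Capzb, and -0.16 for Tpm1 and -0.06 for Tpm3. In the transcripts of Capza1, 64.5% of windows are shared with other genes, so its value is the least certain of the class. Tpm1 had 66.2, 71.5 and 75.7 normalised reads in vitro and 84.9, 85.0 and 68.9 in vivo, with an adjusted p of 0.651 in limma voom. Tpm3 made up 84.7% of both tropomyosins per kilobase in vitro and 83.8% in vivo.

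The actin-related proteins outside the Arp2/3 complex were not called either. Actr1b, a minor form of the dynactin filament subunit, had 69.8, 44.6 and 73.2 normalised reads in vitro and 88.1, 80.6 and 90.4 in vivo. Its groups did not overlap, with a log2 change of -0.50, a standard error of 0.26 and an adjusted p of 0.213 in limma voom. Actr10, at the pointed end of dynactin, had 243, 253 and 257 normalised reads in vitro and 176, 236 and 235 in vivo, also without overlap, with an adjusted p of 0.395. Actr1a, the main filament subunit, had means of 1298 in vitro and 1515 in vivo in the authors' deposited table, and its PPEE was 0.92. Actr8, a subunit of the INO80 chromatin remodeller, was among the 5 members with the highest level per kilobase summed over both groups, at 578 in vitro and 591 in vivo. Actr5, another INO80 subunit, and Actr6, of the SRCAP remodeller, were low, with overlapping groups.

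Among the conventional myosins, Myh10 was the one gene called, and it was called by both tests. Myh10, the heavy chain of non-muscle myosin IIB, had 86.4, 77.7 and 112 normalised reads in vitro and 243, 287 and 214 in vivo. The groups did not overlap, and the highest in vitro library lay well below the lowest in vivo one. The mean was 91.9 ± 17.6 in vitro and 248 ± 37 in vivo (SD, n = 3 per group), a fold of 2.70 lower in vitro. The log2 change was -1.45 with a standard error of 0.22 and an adjusted p of 0.00457 in limma voom, and the PPEE was 1.44e-15. It was called in 6 of 6 fits that left out a library, with adjusted p-values from 0.000564 to 0.0372 and log2 changes from -1.59 to -1.34.

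The other non-muscle heavy chains were low. Myh9, of myosin IIA, had 22.1, 41.5 and 39.7 normalised reads in vitro and 32.3, 53.1 and 58.7 in vivo, which overlapped, with an adjusted p of 0.38 in limma voom. Myh14, of myosin IIC, had 19.3, 25.9 and 11.2 normalised reads in vitro and 12.9, 6.2 and 9.04 in vivo. Its log2 change of 0.97 had a standard error of 0.50 and an adjusted p of 0.206 in limma voom. Per kilobase Myh10 was at 11.8 in vitro and 31.9 in vivo, Myh9 at 4.67 in vitro and 6.52 in vivo, and Myh14 at 2.94 in vitro and 1.47 in vivo. Myh10 was therefore the highest of the 3 non-muscle heavy chains in both groups.

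Heavy chain genes named for muscle were also in the table. Myh11, the smooth muscle heavy chain, had 398, 344 and 341 normalised reads in vitro and 422, 608 and 547 in vivo. Its groups did not overlap, its log2 change was -0.52 with a standard error of 0.17 and an adjusted p of 0.0643 in limma voom, and its PPEE was 0.185. It was called when in vitro library A was left out, with an adjusted p of 0.0207. Of the other smooth muscle markers, Actg2 had means of 10.95 in vitro and 28.7 in vivo and Cnn1 had 68.1 in vitro and 54.1 in vivo in the authors' deposited table, while Acta2, Tagln, Des, Smtn and Mylk were not in it. Actg2 and Myh11 both had lower values in vitro, in libraries that did not overlap, and the part of smooth muscle RNA in the Myh11 values was not tested. Myh11 had 54.7 normalised reads per kilobase in vitro and 79.6 in vivo, and made up 82.2% of Myh11 and Myh10 together per kilobase in vitro and 71.4% in vivo. Myh2, Myh3 and Myh7, of skeletal and cardiac muscle, had means of 151, 22.2 and 21.2 in vitro and 118, 19.8 and 30.2 in vivo in that table, and none was called. Ttn, a listed striated muscle marker outside the members, was called lower in vitro. It had means of 127 in vitro and 194 in vivo in that table, with a PPEE of 1.24e-05. Its libraries did not overlap, and its adjusted p was 0.0601 in limma voom. Other genes' transcripts, most of them Myh1 and Myh6, hold 24.6% of the windows of Myh2 and 20% of those of Myh7.

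The light chains, which bind the neck of these heavy chains, were not called. Myl12a, a regulatory light chain, had means of 547 in vitro and 451 in vivo in the authors' deposited table, and its near copy Myl12b had 30.2 in vitro and 31.0 in vivo. Reads of the pair could be split between them, since Myl12b transcripts hold 16.2% of the windows of Myl12a. Myl6, the essential light chain, had 30.3, 47.7 and 38.5 normalised reads in vitro and 35.6, 24.8 and 26.0 in vivo, which overlapped, with an adjusted p of 0.438 in limma voom.

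The unconventional myosins were the class with the most calls. Of the 17 genes 6 were lower in vitro by PPEE, or 35.3%, against 8.31% of all genes, and 0 were higher. A log2 change below 0 in the authors' deposited table was found for 12 of them, or 70.6%, against 48.9% of all genes, and the class median was -0.19. Of the 15 recovered ones, limma voom called 3 lower, or 20%, against 4.76% of recovered genes, and 0 higher. An unadjusted p below 0.05 was found for 5, or 33.3%, which is near the 29.8% of recovered genes, all with lower values in vitro. For 6 of the 15, or 40%, all in vitro libraries lay below all in vivo ones, against 15.8% of recovered genes, and for 0 above.

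Myo6, the motor that walks toward the pointed end of filaments, had 82.7, 82.9 and 53.4 normalised reads in vitro and 172, 156 and 111 in vivo. The groups did not overlap, and the mean was 73.0 ± 17 in vitro and 146 ± 31.9 in vivo (SD, n = 3 per group), a fold of 2.00 lower in vitro. The log2 change was -1.001 with a standard error of 0.26 and an adjusted p of 0.0309 in limma voom, and the PPEE was 0.000663. The adjusted p was 0.0526 without in vitro library B, 0.136 without in vitro library C, 0.122 without in vivo library A and 0.117 without in vivo library B, and the log2 change stayed between -1.17 and -0.81 over the 6 such fits.

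Myo3a, a class III myosin known from sensory cells, was lower in vitro by both tests but at few reads. It had 26, 10 and 9 reads in vitro and 47, 56 and 30 in vivo, which are 23.9, 10.4 and 11.2 normalised reads in vitro and 38.0, 49.6 and 33.9 in vivo. The groups did not overlap. The log2 change was -1.44 with a standard error of 0.41 and an adjusted p of 0.0426 in limma voom, and the PPEE was 0.000278. The adjusted p was above the threshold in 5 of the 6 fits that left out a library: 0.131 without in vitro library B, 0.147 without in vitro library C, and 0.103, 0.145 and 0.0579 without in vivo libraries A, B and C. The log2 change stayed between -1.85 and -1.20. Myo1a, a myosin of intestinal microvilli, was lower still in level, with 6.43, 2.07 and 11.2 normalised reads in vitro and 13.7, 12.4 and 16.9 in vivo, an adjusted p of 0.153 in limma voom and a PPEE of 1.

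Of the class I myosins that tie membrane to actin, Myo1e and Myo1c were lower in vitro. Myo1e had 256, 150 and 169 normalised reads in vitro and 290, 330 and 304 in vivo. The groups did not overlap, and in vitro library A was nearest to the in vivo ones. The mean was 192 ± 56.7 in vitro and 308 ± 20.4 in vivo (SD, n = 3 per group), a fold of 1.61 lower in vitro. The log2 change was -0.70 with a standard error of 0.20 and an adjusted p of 0.044 in limma voom, and the PPEE was 0.0113. The adjusted p was 0.137 without in vitro library B, 0.155 without in vitro library C, and 0.11, 0.158 and 0.0824 without in vivo libraries A, B and C, and the log2 change stayed between -0.95 and -0.54. Myo1c had means of 888 in vitro and 1407 in vivo in the authors' deposited table, a fold of 1.58 lower in vitro with a PPEE of 0.0338. Myo1c made up 81.2% of Myo1c and Myo1e together per kilobase in vitro and 81% in vivo. Myo1d overlapped between the groups, with an adjusted p of 0.682 in limma voom. Myo1h had 535, 490 and 520 normalised reads in vitro and 612, 586 and 595 in vivo, without overlap, with an adjusted p of 0.29, and shares 23.3% of its windows with Kctd10.

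Of the class V myosins, the vesicle carriers, Myo5a and Myo5b were lower in vitro by PPEE, and Myo5c was not in the table. Myo5b, which in mouse oocytes moves Rab11a vesicles along the actin mesh, had means of 1932 in vitro and 2530 in vivo in the authors' deposited table, a fold of 1.31 lower in vitro with a PPEE of 0.00159. It had the highest level per kilobase of all motors, at 291 in vitro and 381 in vivo. Myo5a had 228, 168 and 199 normalised reads in vitro and 285, 279 and 271 in vivo. The groups did not overlap, and the in vivo libraries lay close together. The log2 change of Myo5a was -0.50 with a standard error of 0.18, and the PPEE of 3.19e-05 was a call, but the adjusted p of 0.081 in limma voom was not. Without in vitro library A that adjusted p was 0.0211. Myo5b made up 94.5% of both per kilobase in vitro and 94.1% in vivo.

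The remaining unconventional myosins overlapped between the groups and were called by neither test. Myo10, a motor of filopodia that also binds microtubules, had 193, 330 and 264 normalised reads in vitro and 201, 244 and 209 in vivo, with an adjusted p of 0.494 in limma voom. Myo19, which sits on mitochondria, had 624, 386 and 421 normalised reads in vitro and 457, 584 and 523 in vivo, with an adjusted p of 0.647. Here in vitro library A was the highest of all 6. Myo7a, Myo9a, Myo9b, Myo16 and Myo18a had log2 changes between -0.16 and 0.16 in the authors' deposited table. An adjusted p above the threshold does not show that these genes were alike in both groups.

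**Figure D3:**
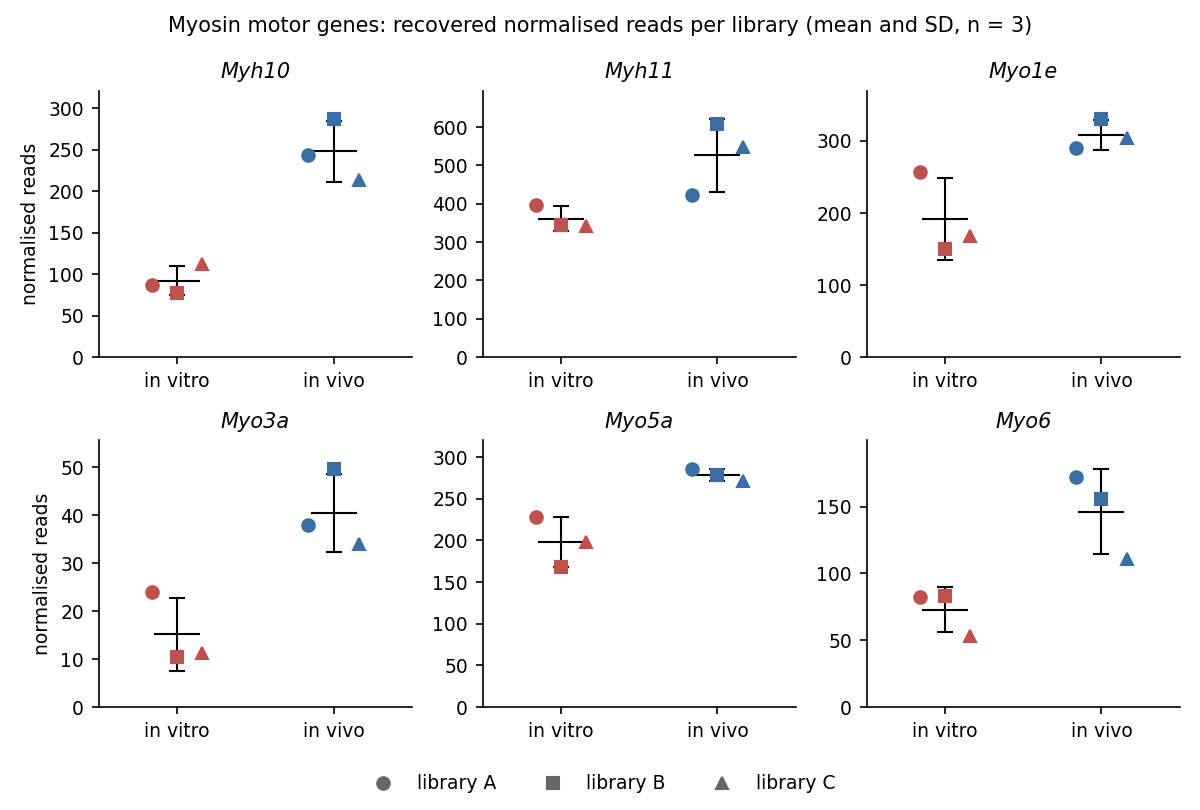
Recovered normalised reads of 6 myosin motor genes in each of the 3 in vitro libraries (red, left) and 3 in vivo libraries (blue, right), with circles for library A, squares for B, triangles for C, and black bars for the mean and SD. For each of the 6 genes all in vitro libraries lie below all in vivo libraries, with the widest gap for Myh10, at 77.7 to 112 in vitro and 214 to 287 in vivo.

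The levels of the 60 members spanned nearly the same range in both groups, from 1.96 to 1707 normalised reads per kilobase in vitro and from 1.47 to 1327 in vivo. Arpc5l, Arpc1b, Cfl1, Actg1 and Actr8 had the 5 highest levels per kilobase summed over both groups. Motors reached 291 per kilobase in vitro and 381 in vivo, both for Myo5b. Summed over the 24 motors, the deposited means came to 6518 normalised reads in vitro and 8373 in vivo. Summed over the other 36 members they came to 22508 in vitro and 20380 in vivo.

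**Figure D4:**
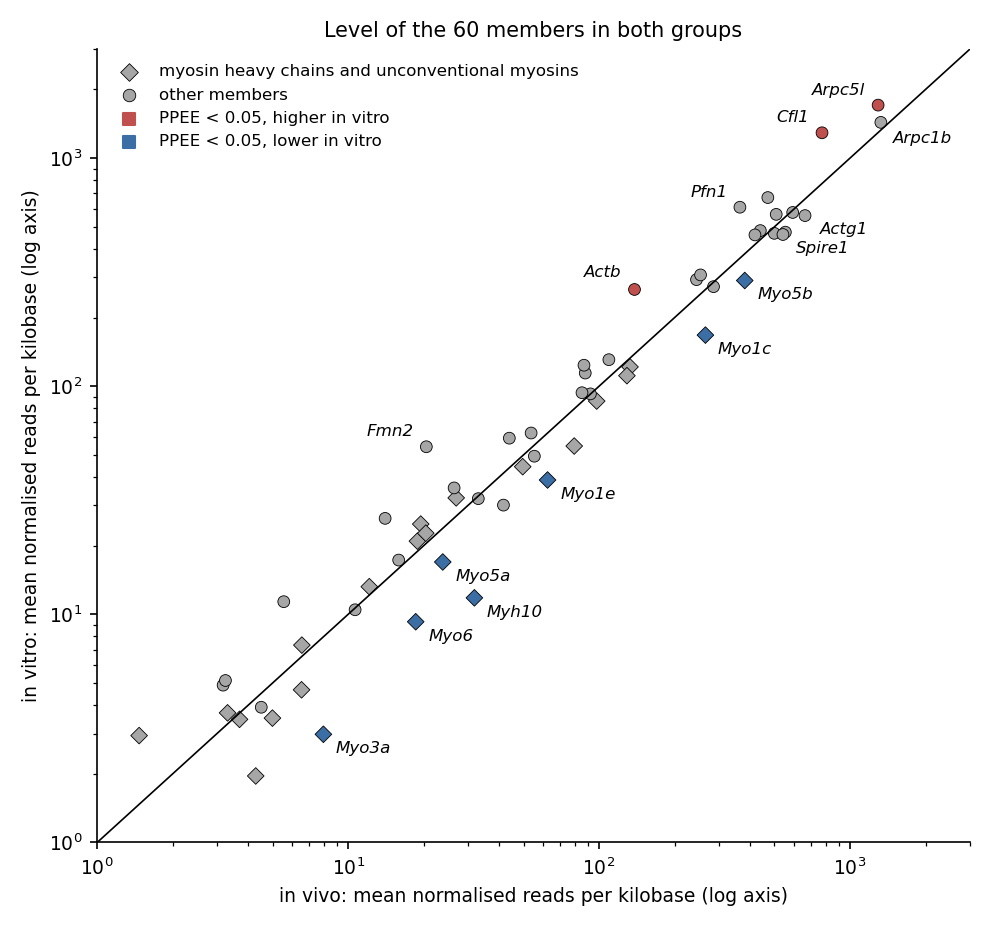
Mean normalised reads per kilobase of gene length of the 60 members, in vitro on the vertical axis and in vivo on the horizontal axis, both logarithmic, with diamonds for myosin motors, circles for the other members and a line of equal values. Blue points, lower in vitro by PPEE, are motors at levels from 2.98 in vitro and 7.97 in vivo for Myo3a to 291 in vitro and 381 in vivo for Myo5b, while red points, higher in vitro, include Arpc5l at the top.

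Between libraries, members varied about as much as other genes. The ratio of the highest to the lowest library had a median of 1.53 in vitro and 1.32 in vivo over the 40 recovered members with a mean of at least 10, against 1.52 in vitro and 1.37 in vivo over all such genes. The widest ratios were 5.39 for Myo1a in vitro and 2.56 for Pfn1 in vivo.

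Of 92 listed other genes of the actin pathway, 63 were in the table. By PPEE 3 were higher in vitro, or 4.76%, against 6.75% of all genes, and 9 were lower, or 14.3%, against 8.31%. The median log2 change was -0.03. The higher ones were Cdc42, a GTPase that activates nucleators, Rock2, a kinase that activates myosin II, and Mprip, which brings myosin phosphatase to filaments. Cdc42 had means of 2064 in vitro and 1745 in vivo, and Rock2 had 67.8 in vitro and 40.8 in vivo, in the authors' deposited table. Among 12 crosslinkers and cortex proteins 4 were lower and 0 higher: Anln, Lcp1, Msn and Pls1. Lcp1, a filament bundler, had means of 646 in vitro and 1021 in vivo in the deposited table. Of 13 nucleation promoting factors 1 was called, Cyfip1 of the WAVE complex, with means of 416 in vitro and 808 in vivo. Of 18 filament and monomer proteins Coro1c, Dstn and Scin were lower and 0 higher. Dstn, a close relative of cofilin, had means of 742 in vitro and 1056 in vivo in the authors' deposited table, so it was called in the opposite direction to Cfl1. Of 17 GTPases and kinases Rab11b was lower, at 223, 120 and 151 normalised reads in vitro and 332, 342 and 322 in vivo, with a log2 change of -1.04, a standard error of 0.21 and an adjusted p of 0.0137 in limma voom. That adjusted p was 0.0758 without in vitro library C, 0.0729 without in vivo library A and 0.0656 without in vivo library B. Of 3 other nucleators 0 were called. In limma voom 1 of the 44 recovered genes of these lists was higher in vitro, Wasl, and 1 was lower, Rab11b. Each is 2.27%, below the 5.53% and 4.76% of recovered genes. Wasl, an activator of the Arp2/3 complex, had 163, 456 and 287 normalised reads in vitro and 149, 126 and 106 in vivo. In vitro library A was the nearest to the in vivo ones. The adjusted p of Wasl was 0.0438 in limma voom, its PPEE of 0.534 was no call, and without any 1 of the libraries other than in vitro library A the adjusted p lay between 0.104 and 0.136.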

How the data were processed

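RNA of 6 oocyte samples, 3 in vitro and 3 in vivo, was measured by sequencing. The authors deposited, as a signal, each group's mean of normalised reads for every gene, without values per sample. Per the file headers they also deposited a gene length, a PPEE and a log2 ratio with the in vivo mean on top, turned here so that in vitro is on top. The PPEE is not a p-value, and its reading as a posterior probability of equal expression comes from its name. The deposited log2 ratio was matched by adding 0.599 to both means (largest difference 8.4e-09). Read alignment with BWA, with no version, and build mm9 come from the submitters' processing notes; how the means were normalised is not given in the sources used here, nor whether counting used strand.

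Each group mean was treated as made of whole read numbers from 3 libraries, weighted by a step of their own. The 3 steps of a group were found from low means, and each mean up to 600 was solved to its 10 significant digits. Exactly 1 solution existed for 95.5% of in vitro and 95.8% of in vivo means, and none had several. The in vitro size factors came to 1.09, 0.965 and 0.806, the in vivo ones to 1.24, 1.13 and 0.885. Normalised reads are reads divided by them. Of the 19 members without reads in both groups, 14 had a mean above 600, and Actb, Myh2, Myh7, Myl12a and Myl12b had no whole solution in one or both groups. The recovered reads were fitted over all 8167 genes with limma 3.58.1 (voom, 2-sided, Benjamini-Hochberg, no block) in R 4.3.3, with library sizes set from the size factors. Recovery and test were checked on simulated data, drawn from recovered genes with the same relative spread for all genes and libraries. That check covered neither a deviating library, such as in vitro library A, nor means without a whole solution. Planned tests per sample thus used recovered reads. Shared 50-base windows came from GENCODE transcripts, and promoters from RefSeq (GRCm38.p6).

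Members were named if called, if among the 5 highest or 5 lowest changes, if on a list of oocyte actin genes, or if among the 5 highest levels per kilobase; others appear by value or range, and 1 member's own values are not reported here. The members and gene lists were chosen with earlier results of these data known, and the class split and the length minimum after seeing the values.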

Additional observations from a re-analysis of the deposited data

How the results depend on the processing

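No paired analysis was possible because the deposited columns are group means and the recovered libraries carry no replicate numbers, so the fits held no replicate block. With a PPEE below 0.01 the members called were 3 higher and 5 lower in vitro, with a PPEE below 0.1 they were 4 and 7, and with a minimum of 1.5-fold 2 and 5. The share of all genes called was not taken at these settings, so these counts cannot be set against a background. The median log2 change of the members, 0.12, came to 0.105 when centred on all genes, 0.118 for members averaging at least 10 normalised reads over both groups and 0.111 with a pseudocount of 10. In limma voom 1 member was higher and 4 were lower. Leaving out each library in turn gave 0 to 5 higher and 1 to 6 lower members, while the calls over all genes ranged from 15 to 1268 higher and from 31 to 805 lower, against 452 and 389 with all libraries. Without in vitro library A the higher members were Arpc3, Diap1, Fmn2, Fmnl3 and Pfn1, and the lower ones Myh10, Myh11, Myo1e, Myo3a, Myo5a and Myo6. These were 5 and 6 of the 41 members, against 1268 higher and 805 lower of all 8167 recovered genes in the same fit. Without in vitro library B, in vitro library C, in vivo library A or in vivo library B only Myh10 was called. Over the 8167 genes those fits called 15 to 150 higher and 31 to 124 lower. Without in vivo library C Fmn2 and Pfn1 were higher and Myh10 and Myo6 lower, against 247 higher and 268 lower of the 8167 genes. With reads recovered only up to a mean of 200, an alternative chosen after seeing the data, 5802 genes and 23 members were left. Of the 23 members 0 were higher and 2 lower, Myo3a and Myo6, against 202 higher and 165 lower of the 5802 genes. Fmn2, Myh10 and Myo1e have a mean above 200 in a group and were not tested in that fit. Leaving out libraries for Rab11b and Wasl was also added after seeing the data. TMM scaling, a minimum of 10 reads and limma trend each called the same 5 members as the fit with all libraries. No member called by PPEE or in the fit with all libraries changed sign under any alternative run. Arpc3, called only without in vitro library A, had a log2 change of -0.105 without in vitro library B. Groups of 3 libraries limit what can be called, and members with means above 600 have no spread between libraries.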
